A study of Mus musculus with 8 samples.

Results

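Carboxylesterases of the Ces1, Ces2 and Ces3 subfamilies were examined in hepatocytes that overexpressed Trib3. The set was given by name and held 10 genes, Ces1c, Ces1d, Ces1e, Ces1f, Ces1g, Ces2a, Ces2c, Ces2e, Ces3a and Ces3b, out of 34745 genes in the deposited table. Each name matched 1 row, and all 10 genes passed the low-count filter that left 11036 genes for testing. AAV-Trib3 libraries (n = 4) came from primary hepatocytes of male mice of wild-type genotype that received an adeno-associated virus of serotype 8 carrying mouse Trib3. AAV-GFP libraries (n = 4) came from such mice whose virus carried GFP. Injection was at 6 weeks of age and hepatocytes were isolated 4 weeks later, so virus and cell isolation are common to both groups. The sources used here do not name the promoter that drives Trib3 or GFP. The labels also do not say whether each library is a separate mouse, so p-values measure the spread between libraries, which may be partly technical.

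Mammalian carboxylesterases are serine hydrolases that cleave esters, amides and thioesters. In liver most of them sit in the lumen of the endoplasmic reticulum, where a retention signal at the C-terminus holds them, and they hydrolyse ester drugs as well as acylglycerols and cholesteryl esters. Rodents carry many tandem copies of these genes where humans have few, so mouse members have no simple human counterpart.

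Total counts per library lay between 11350442 and 15361128. Trib3 stood at 27.9, 62.6, 67.2 and 20.2 CPM in AAV-Trib3 replicates 1 to 4, against 2.68, 1.1, 2.46 and 3.36 CPM in AAV-GFP replicates 1 to 4. CPM is the count relative to the library total, here scaled by TMM factors, which correct for differences in library composition. All 8 hepatocyte markers, Alb and Cps1 among them, had counts in every library. AAV-GFP replicate 2 stood apart: mitochondrial transcripts took 32% of its counts, against 14.9% to 18.5% in the other libraries, and its TMM factor was 0.699, against 0.973 to 1.15.

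All 10 genes lie on chromosome 8 of mm10 in a pair of tandem clusters. The 5 Ces1 genes are transcribed from the minus strand between positions 93099015 and 93337308, a span of 238 kb. Ces2a, Ces2c, Ces2e, Ces3a and Ces3b are transcribed from the plus strand between 104734003 and 105093929, a span of 360 kb. GENCODE M21, which uses that build, lists all of them as protein-coding.

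Carboxylesterase transcripts were abundant in every library. The 10 genes together took 0.687%, 0.79%, 0.856% and 0.699% of all counts in AAV-Trib3 replicates 1 to 4, and 0.929%, 0.786%, 0.694% and 0.832% in AAV-GFP replicates 1 to 4. Those shares overlapped between the groups. Levels of different genes were compared by the deposited FPKM, counts divided by gene length and library total. Ces3a was highest, with a mean of 1169 ± 163 FPKM (SD over 8 libraries), rank 53 of all genes in the table. Ces1c, which encodes the esterase that liver secretes into mouse plasma, followed with 981 ± 98.1 FPKM and rank 61. The ranges of these top genes overlapped, and Ces3a exceeded Ces1c in 7 of 8 libraries. Ces1d came next at 271 ± 60.2 FPKM, below Ces1c and above Ces2a in all 8 libraries and with no overlap of ranges on either side.

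A middle tier held Ces2a at 134 ± 31.6, Ces3b at 119 ± 20.4, Ces1f at 118 ± 23.2 and Ces1g at 102 ± 24.7 FPKM. Neighbours in this tier had overlapping ranges, and Ces3b exceeded Ces1f in only 4 of 8 libraries. Ces2e at 59.2 ± 16.3 and Ces1e at 57.0 ± 14.4 FPKM could not be ordered either, with Ces2e higher in 4 of 8 libraries. Ces2c was lowest at 24.4 ± 11.1 FPKM and lay below Ces1e in all 8 libraries, although their ranges over libraries met. The length behind the FPKM matters for this order: it implied 2.05 kb for Ces3a and 3.9 kb for Ces3b, whose coding sequences are both 1713 bases long.

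**Figure D1:**
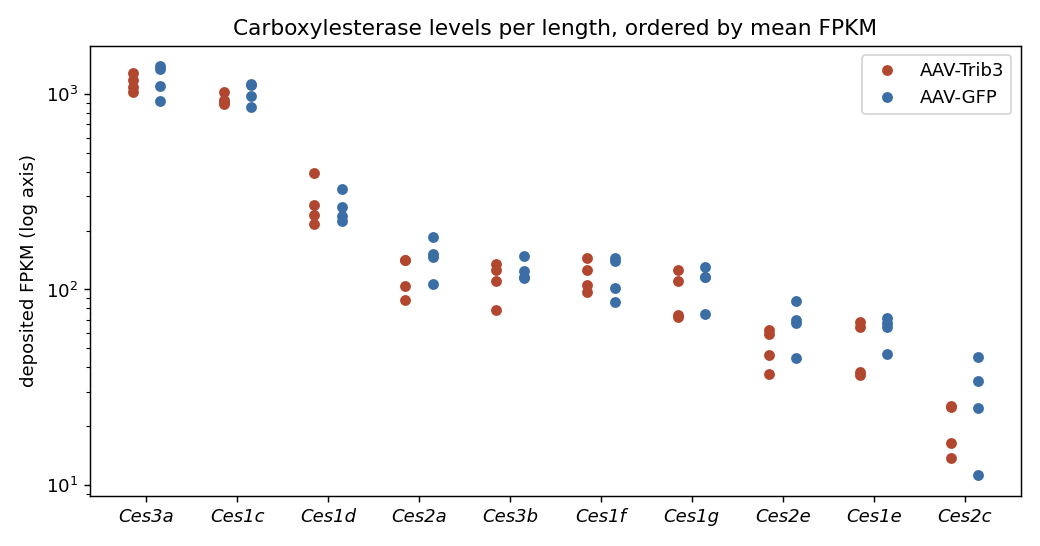
Deposited FPKM (log axis) of each carboxylesterase gene, ordered by the mean over 8 libraries, with AAV-Trib3 libraries left and AAV-GFP libraries right. Ces3a and Ces1c lie near 1000 FPKM, Ces1d stands alone at 271 FPKM on average, and Ces2c is lowest at 24.4 FPKM.

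The comparison of AAV-Trib3 with AAV-GFP asks how raised Trib3, a pseudokinase known to bind AKT, is reflected in hepatocyte transcripts. No carboxylesterase gene passed the test, and neither did any other gene. Trib3 itself was not called by edgeR, although its CPM was higher in every AAV-Trib3 library than in any AAV-GFP library. A member that was not called may therefore still differ between the groups. In edgeR's quasi-likelihood test 0 of 10 passed a Benjamini-Hochberg adjusted p of 0.05, 0 of 10 had an unadjusted p under 0.05, and DESeq2 and limma-voom called 0 of 10. Over all 11036 genes edgeR called 0 (0%), 346 (3.14%) had an unadjusted p under 0.05 (1.78% lower and 1.36% higher in AAV-Trib3), DESeq2 called 17 (0.154%) and limma-voom 0. DESeq2 gave no adjusted p for 5136 of these genes, and they count here as not called. The intervals of the members were wide, reaching a log2 fold change of −1.22 for Ces2c and −0.90 for Ces2e. Groups overlapped in CPM for every member, whereas they did not overlap for 2.29% of all tested genes. The log2 fold change, AAV-Trib3 over AAV-GFP, was below 0 for 9 of 10 members and for 52.1% of all tested genes, with a median of −0.30 for the members and −0.0098 for all tested genes. Without AAV-GFP replicate 2 it was below 0 for 4 of 10 members, and their median was 0.015. Counts of bulk RNA cannot tell fewer expressing cells from less RNA per cell.

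**Figure D2:**
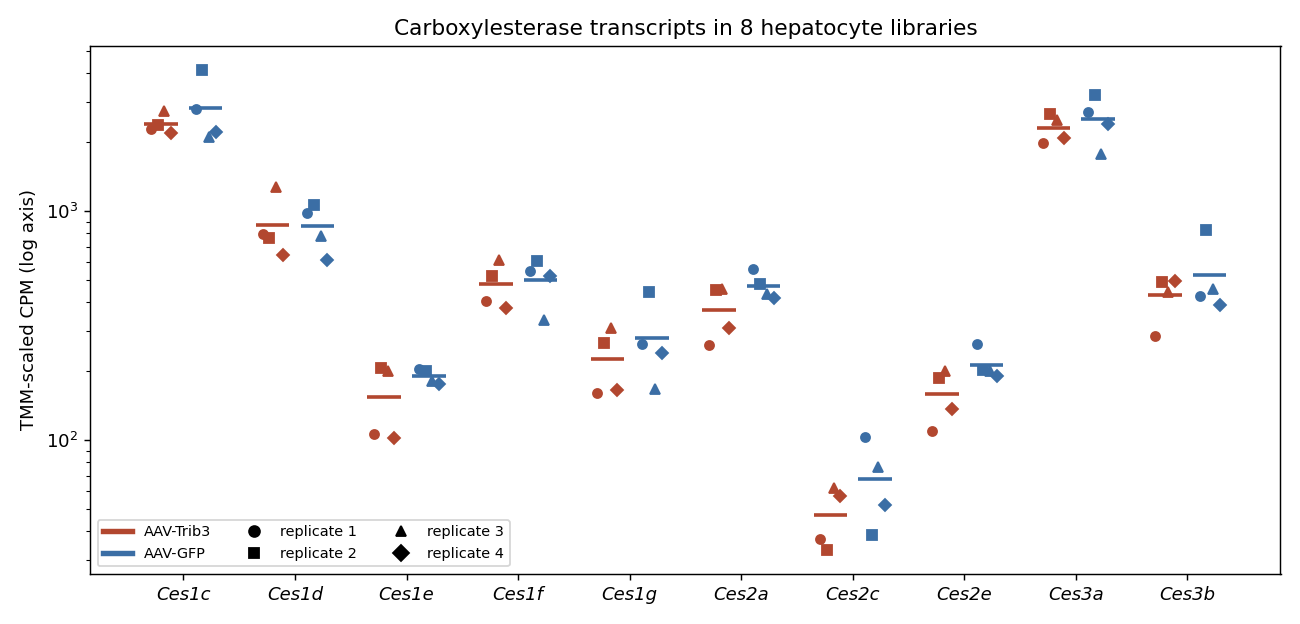
TMM-scaled CPM (log axis) of each carboxylesterase gene in the 4 AAV-Trib3 libraries (left, red) and the 4 AAV-GFP libraries (right, blue), with a symbol for each replicate number and a line at the group mean. The groups overlap for all 10 genes, and AAV-Trib3 replicates 1 and 4 lie lowest for Ces1e, Ces1g, Ces2a and Ces2e.

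The Ces1 subfamily made up 52.0% to 58.4% of carboxylesterase counts in AAV-Trib3 libraries and 52.2% to 57.5% in AAV-GFP libraries. Its summed level was 4126 ± 728 CPM in AAV-Trib3 and 4646 ± 1320 CPM in AAV-GFP (SD, n = 4 each). Ces1c, the plasma esterase, dominated these sums. It had 2288, 2376, 2742 and 2186 CPM in AAV-Trib3 replicates 1 to 4, against 2781, 4139, 2109 and 2225 CPM in AAV-GFP replicates 1 to 4. The AAV-Trib3 libraries were close together, and AAV-GFP replicate 2 was above all others. Its log2 fold change was −0.23 ± 0.24 (SE; 95% interval −0.77 to 0.31), and 0.023 without AAV-GFP replicate 2. Scaled by library size alone, AAV-GFP replicate 2 had 2893 CPM of Ces1c, below the 2923 CPM of AAV-GFP replicate 1. With TMM scaling, the 8 hepatocyte markers had their highest summed level in AAV-GFP replicate 2, 148000 CPM. They had 73100 to 118000 CPM in AAV-Trib3 and 75300 to 87400 CPM in the other AAV-GFP libraries. That order depends on the TMM factor of 0.699 of AAV-GFP replicate 2: without TMM factors AAV-Trib3 replicate 3 would lie above it.

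Ces1d encodes the triacylglycerol hydrolase of the endoplasmic reticulum, which mobilises stored fat for very low density lipoprotein, and was formerly named Ces3. It had 796.5, 765, 1273 and 641 CPM in AAV-Trib3 replicates 1 to 4, against 982, 1068, 777.5 and 610.3 CPM in AAV-GFP replicates 1 to 4. With TMM scaling AAV-Trib3 replicate 3 was highest and AAV-GFP replicate 4 lowest, and the groups overlapped. By library size alone AAV-Trib3 replicate 4 was lowest, with 682.7 CPM against 702.3 CPM in AAV-GFP replicate 4. The log2 fold change was 0.016 ± 0.26 (SE), the only one above 0, and it turned to −0.23 without AAV-Trib3 replicate 3, −0.028 without AAV-GFP replicate 3 and −0.12 without AAV-GFP replicate 4.

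Ces1e encodes egasyn, the esterase that binds beta-glucuronidase and holds it in the endoplasmic reticulum. It had 106, 206, 200.2 and 103 CPM in AAV-Trib3 replicates 1 to 4, against 204, 201, 181 and 176 CPM in AAV-GFP replicates 1 to 4. AAV-Trib3 replicates 1 and 4 lay far below the other 6 libraries, which lay between 176 and 206 CPM. The coefficient of variation was 37.1% in AAV-Trib3 and 7.32% in AAV-GFP. Scaled by library size alone it was 32.9% in AAV-Trib3 and 17.5% in AAV-GFP, where AAV-GFP replicate 2 had 140.2 CPM, between AAV-Trib3 replicate 1 and the other libraries. The log2 fold change was −0.31 ± 0.25 (SE; 95% interval −0.86 to 0.24; edgeR adjusted p = 0.9995), and the exact two-sided permutation p was 0.371, where 0.0286 is the smallest possible. It was −0.16 without AAV-Trib3 replicate 4 and −0.49 without AAV-Trib3 replicate 2. Gusb, the gene of beta-glucuronidase, averaged 28.6 ± 7.0 CPM in AAV-Trib3 and 25.5 ± 0.88 CPM in AAV-GFP, with a log2 fold change of 0.16 ± 0.17 (SE).

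Ces1f, which RefSeq also lists as TGH-2, had 406, 520.4, 615 and 378 CPM in AAV-Trib3 replicates 1 to 4, against 551, 606, 336 and 519.7 CPM in AAV-GFP replicates 1 to 4. Ces1g, an esterase of the endoplasmic reticulum whose loss in mice is known to raise liver fat, had 161, 266, 309.5 and 166 CPM in AAV-Trib3 replicates 1 to 4. In AAV-GFP replicates 1 to 4 it had 263, 446, 168 and 241 CPM. With TMM scaling both genes were low in AAV-Trib3 replicates 1 and 4 and in AAV-GFP replicate 3, and Ces1g was highest in AAV-GFP replicate 2. Log2 fold changes were −0.067 ± 0.23 for Ces1f and −0.31 ± 0.32 for Ces1g (SE), and without AAV-GFP replicate 2 they were 0.042 for Ces1f and 0.018 for Ces1g. The value of Ces1f was also above 0 without AAV-Trib3 replicate 1 (0.0050) or AAV-Trib3 replicate 4 (0.031).

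Promoters of Ces1 members are shown because all 3 members with an entry, Ces1c, Ces1e and Ces1g, share an 8-base motif. The sequences are from RefSeq (GRCm38.p6), cover the 250 bases before the RefSeq start, which for Ces1g differs from the start in the deposited table, and run 5′ to 3′ on the gene's minus strand. Capitals mark TTATGTAA, the core of the D-box, an element known to be bound by PAR bZIP factors such as DBP and by NFIL3.
Ces1c, chr8:93131284-93131533: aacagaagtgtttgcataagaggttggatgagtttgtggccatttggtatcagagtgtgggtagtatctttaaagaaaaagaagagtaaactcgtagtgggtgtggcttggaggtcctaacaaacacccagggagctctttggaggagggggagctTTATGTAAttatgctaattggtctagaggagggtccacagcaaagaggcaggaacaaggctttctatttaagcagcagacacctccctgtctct
Ces1e, chr8:93229620-93229869: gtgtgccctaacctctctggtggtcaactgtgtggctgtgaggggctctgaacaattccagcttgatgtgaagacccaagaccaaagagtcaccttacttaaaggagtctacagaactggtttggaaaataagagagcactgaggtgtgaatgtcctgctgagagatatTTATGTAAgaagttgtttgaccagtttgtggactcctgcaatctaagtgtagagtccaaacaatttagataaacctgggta
Ces1g, chr8:93337210-93337459: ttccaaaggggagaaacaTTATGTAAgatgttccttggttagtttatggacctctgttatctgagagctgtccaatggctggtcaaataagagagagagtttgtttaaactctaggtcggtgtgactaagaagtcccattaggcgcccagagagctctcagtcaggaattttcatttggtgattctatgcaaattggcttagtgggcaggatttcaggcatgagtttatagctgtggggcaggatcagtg

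The motif ended 87 bases before the start of Ces1c and 74 bases before that of Ces1e, and it ended 225 bases before that of Ces1g. Searched on both strands of the same window, it occurred in promoters of 264 of 27025 genes (0.977%). Among Ces2 and Ces3 members with an entry, none held it. Promoters of carboxylesterase genes outside the set were not examined by name. It was chosen after the sequences had been read, so its presence in all 3 is a description and no test.

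With all 8 libraries the Ces2 genes had log2 fold changes of −0.36 to −0.51, with SEs that do not separate them from other members. The human Ces2 enzyme is known to prefer drugs with a large alcohol group and a small acyl group, and mouse members also hydrolyse acylglycerols. Their summed level was 407.8, 672.6, 720.0 and 503.6 CPM in AAV-Trib3 replicates 1 to 4, against 924.7, 723.4, 711.2 and 660.7 CPM in AAV-GFP replicates 1 to 4. AAV-Trib3 replicates 1 and 4 were the lowest of the 8 libraries, while AAV-Trib3 replicates 2 and 3 lay within AAV-GFP. By library size alone the order turned, with 536.1 CPM in AAV-Trib3 replicate 4 and 505.6 CPM in AAV-GFP replicate 2. The log2 ratio of group means was −0.39 and ran from −0.52 without AAV-Trib3 replicate 3 to −0.26 without AAV-Trib3 replicate 1.

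Ces2a, an esterase formerly named Ces6, had 261.5, 451, 458 and 310.3 CPM in AAV-Trib3 replicates 1 to 4, against 559, 483, 435 and 417 CPM in AAV-GFP replicates 1 to 4. AAV-Trib3 replicates 1 and 4 were below all AAV-GFP libraries, and AAV-Trib3 replicates 2 and 3 were not. Its log2 fold change was −0.36 ± 0.21 (SE; 95% interval −0.83 to 0.12; edgeR unadjusted p = 0.127; exact permutation p = 0.2). Ces2e, formerly Ces5, had 109, 188, 200.4 and 136 CPM in AAV-Trib3 replicates 1 to 4, against 263, 202, 199.6 and 191 CPM in AAV-GFP replicates 1 to 4. All AAV-Trib3 libraries but replicate 3 lay below every AAV-GFP library, and AAV-Trib3 replicate 3 lay just above AAV-GFP replicates 3 and 4. That order rests on the TMM factor of AAV-GFP replicate 2: by library size alone AAV-Trib3 replicates 2, 3 and 4 had 187, 194.8 and 145.2 CPM of Ces2e, all above the 140.9 CPM of AAV-GFP replicate 2. Ces2e had the smallest p of the set, with a log2 fold change of −0.43 ± 0.21 (SE; 95% interval −0.90 to 0.040; edgeR unadjusted p = 0.0689, adjusted p = 0.9995; exact permutation p = 0.0857). It was −0.29 without AAV-Trib3 replicate 1 and −0.56 without AAV-Trib3 replicate 3.

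Ces2a and Ces2e kept an almost fixed proportion. The ratio of their counts was 2.28 to 2.4 in AAV-Trib3 libraries and 2.13 to 2.4 in AAV-GFP libraries, although Ces2e itself ranged from 109 to 263 CPM. Over the 8 libraries the Pearson correlation of their log2 CPM was 0.986, the highest of 45 member pairs. Ces2c, an esterase known in mouse liver to hydrolyse diacylglycerol, did not keep to that proportion. The ratio of Ces2e to Ces2c counts ran from 2.4 to 5.65 in AAV-Trib3 libraries and from 2.55 to 5.23 in AAV-GFP libraries. Ces2c had 37.0, 33.3, 61.8 and 56.9 CPM in AAV-Trib3 replicates 1 to 4, against 102.9, 38.6, 76.4 and 52.0 CPM in AAV-GFP replicates 1 to 4. AAV-Trib3 replicates 1 and 2 and AAV-GFP replicate 2 were low, and AAV-GFP replicate 1 was highest. Its log2 fold change of −0.51 ± 0.32 (SE; 95% interval −1.22 to 0.19) was the lowest of the set with all libraries and was −0.24 without AAV-GFP replicate 1.

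Promoters of all 3 Ces2 members are shown so that these close copies can be compared. They cover the 250 bases before the start, 5′ to 3′ on the plus strand (RefSeq, GRCm38.p6). Capitals mark GAACTTTG, the reverse complement of CAAAGTTC, which forms part of the direct repeat that the hepatocyte factor HNF4A is known to bind.
Ces2a, chr8:104733753-104734002: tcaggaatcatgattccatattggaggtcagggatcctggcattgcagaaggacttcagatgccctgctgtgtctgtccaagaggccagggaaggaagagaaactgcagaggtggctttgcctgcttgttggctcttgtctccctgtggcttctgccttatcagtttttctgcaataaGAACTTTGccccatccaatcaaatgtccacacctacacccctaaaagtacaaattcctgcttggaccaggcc
Ces2e, chr8:104926010-104926259: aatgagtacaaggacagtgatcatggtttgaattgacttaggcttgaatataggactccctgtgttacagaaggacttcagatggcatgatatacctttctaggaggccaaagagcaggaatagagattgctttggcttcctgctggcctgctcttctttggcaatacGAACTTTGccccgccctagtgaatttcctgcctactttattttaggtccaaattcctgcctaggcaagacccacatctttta
Ces2c, chr8:104846818-104847067: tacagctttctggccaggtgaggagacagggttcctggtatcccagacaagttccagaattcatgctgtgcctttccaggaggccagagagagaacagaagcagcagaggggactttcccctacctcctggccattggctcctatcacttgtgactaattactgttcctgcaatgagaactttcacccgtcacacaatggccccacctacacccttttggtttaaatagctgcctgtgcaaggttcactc

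The motif began 72 bases before the start of Ces2a and 82 bases before that of Ces2e. On both strands it occurred in promoters of 286 of 27025 genes (1.06%), and it too was chosen after reading the sequences. Ces2c and Ces1e held no exact match in this window, and the levels of Ces1e correlated with those of Ces2a at 0.941. Over the whole window Ces2a was more like Ces2c, with 64.6% identical positions, than like Ces2e, with 53.2%. The promoter of Ces3b, which held neither marked motif, is not shown, and Ces1d, Ces1f and Ces3a had no promoter entry.

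The Ces3 genes, a close tandem pair, made up 33.4% to 39.5% of carboxylesterase counts in AAV-Trib3 libraries and 34.2% to 38.7% in AAV-GFP libraries. Ces3a, the most abundant member per length, had 1978, 2645, 2497 and 2096 CPM in AAV-Trib3 replicates 1 to 4, against 2708, 3232, 1771 and 2408 CPM in AAV-GFP replicates 1 to 4. AAV-GFP held both the highest and the lowest library, and the log2 fold change was −0.13 ± 0.22 (SE). Ces3b had 286, 493, 445 and 493 CPM in AAV-Trib3 replicates 1 to 4, against 424.5, 826, 457 and 391 CPM in AAV-GFP replicates 1 to 4. AAV-GFP replicate 2 was high and AAV-Trib3 replicate 1 low, and the other 6 libraries lay between 391 and 493 CPM. Without AAV-GFP replicate 2 the fold change of Ces3a was 0.012. The log2 fold change of Ces3b was −0.29 ± 0.28 (SE), and 0.024 without AAV-GFP replicate 2. The ratio of Ces3a to Ces3b counts varied from 4.25 to 6.91 in AAV-Trib3 libraries and from 3.88 to 6.38 in AAV-GFP libraries.

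**Figure D3:**
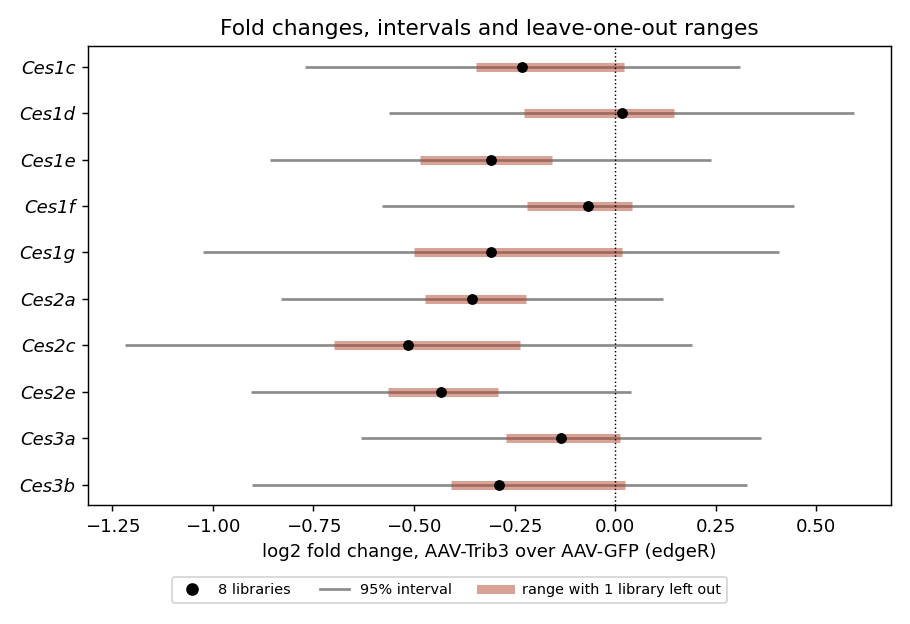
Log2 fold change of each carboxylesterase gene, AAV-Trib3 over AAV-GFP, from edgeR with 8 libraries (points), with 95% intervals (thin lines) and the range when 1 library is left out (thick bars). All 10 intervals include 0, and the bars of Ces1e, Ces2a, Ces2c and Ces2e stay below 0.

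Library by library, with TMM scaling, Ces1e, Ces2a and Ces2e were lowest in AAV-Trib3 replicates 1 and 4, with pairwise correlations of 0.899 to 0.986 over 8 libraries. By library size alone these correlations were 0.895 to 0.993, but for Ces2e AAV-GFP replicate 2 lay below AAV-Trib3 replicate 4. Ces1f, Ces1g and Ces3a had correlations of 0.902 to 0.933, which were 0.687 to 0.892 by library size alone. The highest correlation of Ces2c with any member was 0.557, with Ces2e, and 0.721 by library size alone. These coefficients describe 8 libraries that also share depth and scaling. With TMM scaling, pairs within a subfamily had a median correlation of 0.643 (14 pairs) and pairs between subfamilies 0.488 (31 pairs). These medians were not examined by library size alone, where single pairs moved in both directions. Ces3a and Ces3b correlated at 0.634 with TMM scaling and at 0.060 by library size alone. For Ces2a and Ces2c the values were 0.431 and 0.646.

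Within AAV-Trib3, acute phase genes varied over the same libraries as Ces1e, Ces2a and Ces2e. The mean log2 CPM of 20 acute phase genes was 9.97, 7.8, 7.7 and 9.77 in AAV-Trib3 replicates 1 to 4, against 8.04, 8.59, 8.51 and 7.57 in AAV-GFP replicates 1 to 4. AAV-Trib3 replicates 1 and 4, lowest in TMM-scaled Ces1e, Ces2a and Ces2e, were highest in acute phase transcripts, and of the AAV-Trib3 libraries they had the least Trib3. This inverse order did not extend to AAV-GFP with TMM scaling. There replicate 4 was lowest of its group in the acute phase mean and also in Ces1e, Ces2a and Ces2e. By library size alone AAV-GFP replicate 2 was lowest of its group in these genes instead. The 11 macrophage and Kupffer cell markers summed to 96.5, 10.3, 22.4 and 60.9 CPM in AAV-Trib3 replicates 1 to 4, against 11.1, 75.5, 8.52 and 71.3 CPM in AAV-GFP replicates 1 to 4. Timd4 and Marco were at 0 in AAV-Trib3 replicate 2 and Timd4 in AAV-GFP replicate 2, and every other marker of the list had counts in every library. The macrophage sums were highest in AAV-Trib3 replicates 1 and 4 and AAV-GFP replicates 2 and 4. The part of the acute phase response or of macrophage content in the levels of Ces1e, Ces2a and Ces2e was not tested.

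**Figure D4:**
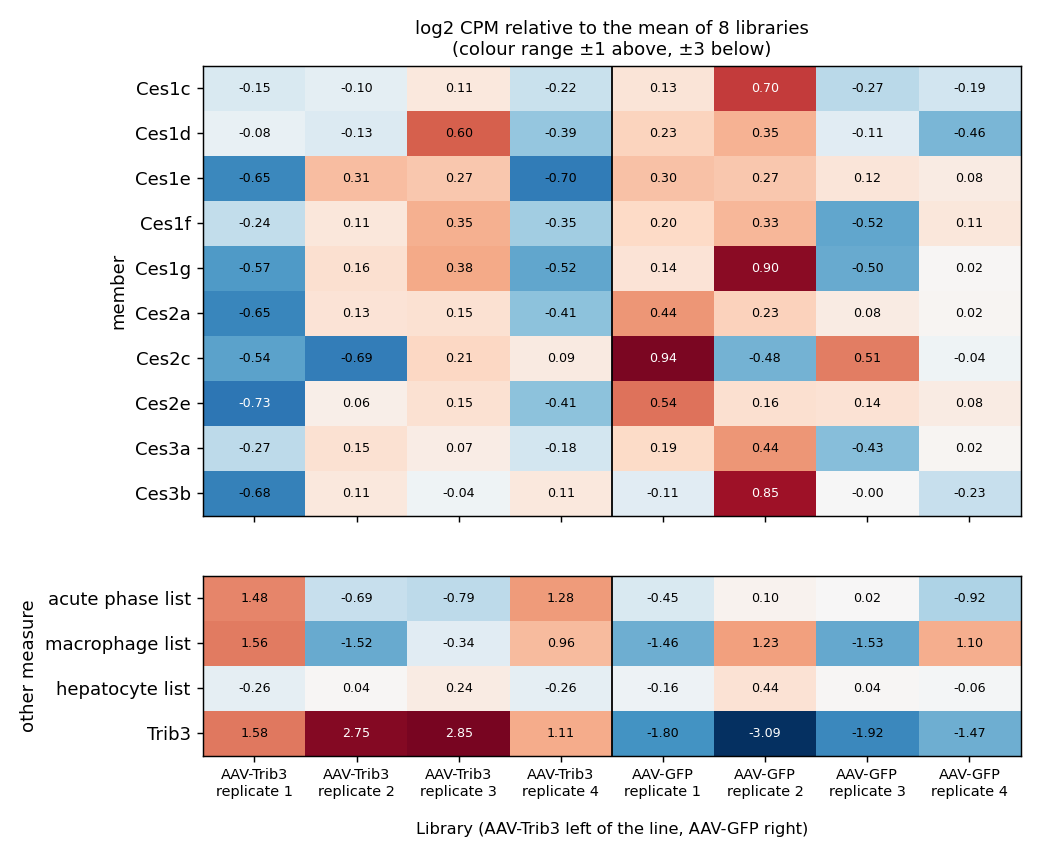
TMM-scaled log2 CPM of each carboxylesterase gene relative to its mean over 8 libraries (upper panel), with the acute phase, macrophage and hepatocyte lists and Trib3 treated alike (lower panel), AAV-Trib3 libraries left of the line and AAV-GFP libraries right. Ces1e, Ces2a and Ces2e are lowest in AAV-Trib3 replicates 1 and 4, where the acute phase list is highest, and Ces1c, Ces1g and Ces3b are highest in AAV-GFP replicate 2.

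The genes outside the set whose TMM-scaled log2 CPM was most like the mean of the members were Tkt (r = 0.971), Pgrmc1 (0.923), Sucnr1 (0.923), Pgd (0.910) and Acsf2 (0.909), each over 8 libraries, where genes whose log2 CPM averaged under 3 were left out. These genes, and those for single members below, were picked as the highest of all genes above that limit. With 8 libraries high coefficients can arise from such a selection, so they are a description and no test. Tkt encodes transketolase and Pgd 6-phosphogluconate dehydrogenase, both enzymes of the pentose phosphate pathway, which was not tested as a set. Tkt averaged 107 ± 22.2 CPM in AAV-Trib3 and 134 ± 23.7 CPM in AAV-GFP (SD, n = 4 each). For single members the closest gene outside the set was Lmf1 for Ces1c (r = 0.994), Inmt for Ces1e (0.938), Tns2 for Ces2a (0.930), Arsb for Ces2e (0.959) and Rcl1 for Ces2c (0.964).

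Similarity of the copies limits how well reads can be assigned. Ces3a and Ces3b had 95.3% identical coding sequences, the closest pair of the family, and Ces2c was 91.3% identical to Ces2b and Ces1c 88.7% to Ces1b. Of all stretches of 100 bases in the transcripts of a member, 6.88% for Ces3a and 7.04% for Ces3b occurred exactly in the other one. The share was 13.6% for Ces2c, nearly all of it with the pseudogene Ces2d-ps, 8.13% for Ces2a, with the gene model Gm7208, and 1.03% for Ces1c, with Ces1b. It was 0% for Ces1d, Ces1e, Ces1f, Ces1g and Ces2e. For stretches of 50 bases the shares were 25.6% for Ces3a, 26.2% for Ces3b, 36.1% for Ces2c, 17.3% for Ces2a and 13% for Ces1c, and 0.903% to 3.3% for the other members. Neither the read length nor the treatment of multiply matching reads is stated in the sources used here. Counts of Ces3a, Ces3b, Ces2c, Ces2a and Ces1c are therefore uncertain by an unknown amount. A member's own share does not bound it, because the level of its partner counts too. In AAV-GFP, Ces3a averaged 2530 CPM and Ces3b 524.6 CPM. Wrongly placed Ces3a reads would thus weigh more on Ces3b than the reverse. Ces2d-ps itself had at most 1 count per library, and Ces2b at most 44 counts in AAV-Trib3 and 62 in AAV-GFP libraries.

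**Figure D5:**
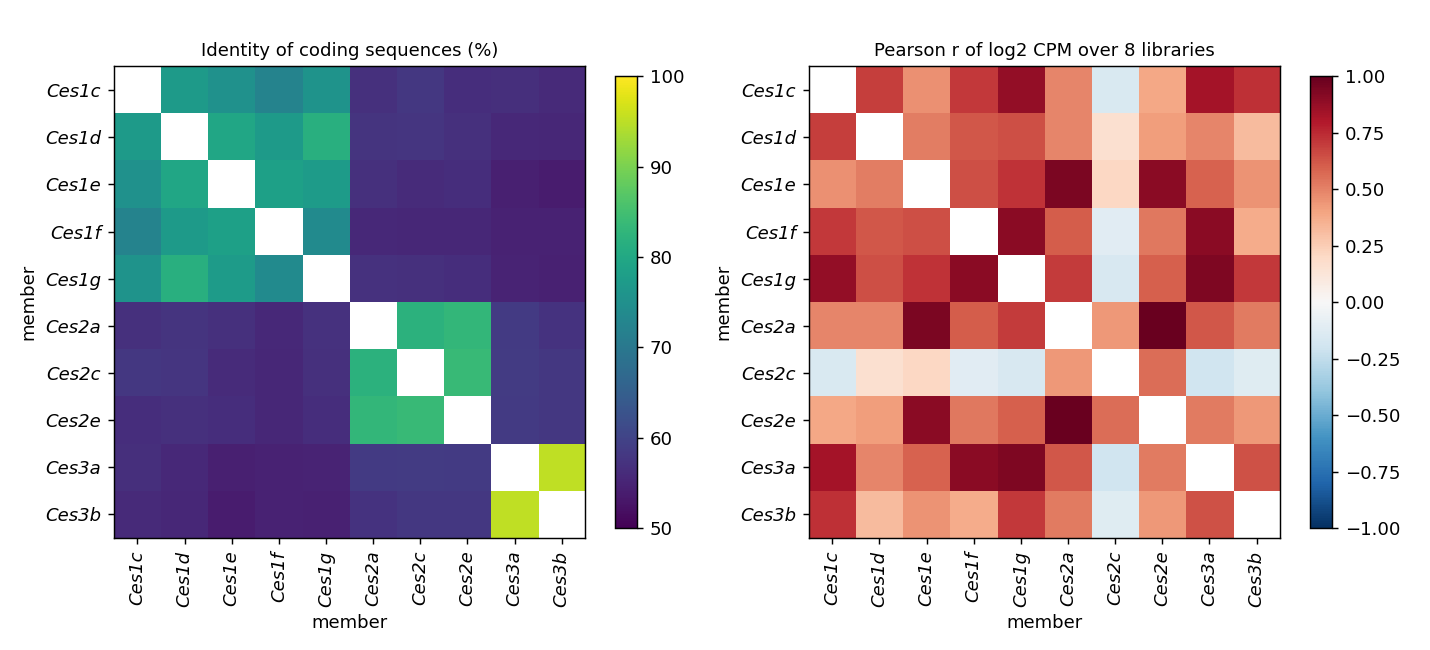
Identity of coding sequences (left, percent) and Pearson correlation of TMM-scaled log2 CPM over 8 libraries (right) for all 45 pairs of carboxylesterase genes. Identity forms 3 blocks by subfamily, highest at 95.3% for Ces3a and Ces3b, whereas Ces1e correlates with Ces2a at 0.941 while coding identity between subfamilies is at most 58.6%.

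Of 10 further carboxylesterase genes, 4 were expressed highly enough to be tested and 0 passed edgeR's threshold, with 0 at an unadjusted p under 0.05. The log2 fold change was below 0 for all 4, with a median of −0.77, beside 52.1% of all tested genes below 0. It was −0.34 ± 0.30 for Ces1b, −0.16 ± 0.20 for Ces2g, −1.20 ± 0.86 for Ces2b and −1.28 ± 0.62 for Ces4a (SE). The largest of these are on weakly expressed genes, as Ces2b had at most 4.48 CPM and Ces4a at most 8.89 CPM in any library. Ces1b averaged 86.9 ± 15 CPM in AAV-Trib3 and 110 ± 57.3 CPM in AAV-GFP, Ces2b 1.32 ± 1.49 and 2.98 ± 1.35 CPM, and Ces4a 2.07 ± 1.57 and 5.09 ± 3.49 CPM (SD, n = 4 each). Ces1h, Ces2f and Ces5a had 0 counts in all 8 libraries.

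Lists of related genes, chosen with earlier results of these data known, likewise held no gene past edgeR's threshold. Among 11 tested esterases, epoxide hydrolases and related enzymes of drug metabolism, log2 fold changes were above 0 for 6 and below 0 for 5, with a median of 0.0086. Pon1, the paraoxonase of plasma lipoproteins, averaged 698 ± 50.4 CPM in AAV-Trib3 and 897 ± 246 CPM in AAV-GFP (log2 fold change −0.36 ± 0.20, SE). Among 12 neutral lipid hydrolases and cofactors, 4 were above 0 and 8 below, with a median of −0.039. Lpl, lipoprotein lipase, averaged 9.07 ± 2.58 CPM in AAV-Trib3 and 17.2 ± 14.4 CPM in AAV-GFP (log2 fold change −0.93 ± 0.48, SE). Among 10 genes of lipoprotein assembly, 2 were above 0 and 8 below, with a median of −0.15. Of these, 2 had an unadjusted p under 0.05, Fitm1 (−0.79 ± 0.31) and the lipid droplet gene Cidec (−2.21 ± 0.98). Of all tested genes, 1.78% were lower at that p and 52.1% had log2 fold changes below 0. Among 8 endoplasmic reticulum partners the median was 0.13, and Hspa5, the chaperone BiP, had 0.35 ± 0.20.

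Nuclear receptors and factors known to act on carboxylesterase genes were split evenly, 5 above and 5 below 0, with a median of 0.0093. Nr3c1, the glucocorticoid receptor, averaged 78.6 ± 1.99 CPM in AAV-Trib3 and 68.6 ± 9.61 CPM in AAV-GFP. The median log2 fold change of all tested genes was −0.0098, and 52.1% were below 0. At an unadjusted p under 0.05, 1.78% of them were lower. Targets of the xenobiotic receptors CAR and PXR had log2 fold changes below 0 for 10 of 11 tested genes, with a median of −0.36. Of these, 2 had an unadjusted p under 0.05: Ugt1a1, which conjugates bilirubin, with −0.59 ± 0.17, and the efflux transporter Abcc3, with −0.59 ± 0.18 (SE; edgeR adjusted p = 1 for both). Among 20 acute phase genes, 15 were above 0 and 5 below, with a median of 0.53, where 52.1% of all tested genes were below 0. Of these, 4 were higher at an unadjusted p under 0.05 (20 tested), beside 1.36% of all tested genes. The list mean was high in AAV-Trib3 replicates 1 and 4, at 9.97 and 9.77, and not in AAV-Trib3 replicates 2 and 3, at 7.8 and 7.7, below AAV-GFP replicates 1, 2 and 3.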

How the data were processed

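Poly(A)-selected RNA of 8 libraries was measured. The authors deposited whole-number gene counts and FPKM, per the file headers. The submitters' processing notes name Trimmomatic and mm10; aligner, counter and strand setting: not given in the sources used here. Samples were grouped by title. From the counts, genes were filtered with filterByExpr, scaled by TMM and tested with edgeR 4.0.16 (glmQLFit, robust), with Benjamini-Hochberg adjustment over 11036 genes at 0.05, in R 4.3.3. SE came from the fold change and F. Log2 CPM used a prior count of 2. Single values were compared by exact permutation over 70 relabellings. Alternatives used DESeq2 1.42.0, limma 3.58.1, other scalings and low-count filters, mitochondrial transcripts left out, each library left out and a replicate block. Coding sequences were aligned globally with Biopython 1.88 from GENCODE M21 transcripts, and promoters were read from RefSeq. Named genes were all members and up to 3 per list with the smallest p, plus the genes of most similar pattern and further carboxylesterase genes. The members and lists were chosen with earlier results of these data known. The edgeR procedure was tested on simulated data. Counts of libraries within a group differed far beyond sampling noise (chi-square per degree of freedom 15.6 to 189). The highest values, 159, 182 and 189, were from the pairs with AAV-GFP replicate 2. All libraries were kept.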

Additional observations from a re-analysis of the deposited data

Results flagged for a closer look

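In a group of 4 libraries, a value was marked when its gap to the nearest library took more than 0.829 of the group's range; of 30 groups of values checked, 2 were marked, where chance marks about 1 in 20. Ces2e had 262.8 CPM in AAV-GFP replicate 1, against 191.3 to 201.7 CPM in the other AAV-GFP libraries. Ces3b had 825.7 CPM in AAV-GFP replicate 2, against 391.1 to 456.9 CPM in the other AAV-GFP libraries. With library size alone neither passed that limit, with gap shares of 0.531 for Ces2e and 0.688 for Ces3b.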

How the results depend on the processing

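With the replicate number as a block, 0 genes and 0 carboxylesterase genes were called, as in the fit without it. Same-numbered libraries did not deviate together (correlations of −0.267 to −0.0319). This gave no sign that the numbers pair the samples, but so few correlations cannot exclude a pairing. DESeq2's Wald test called 17 genes where edgeR called 0, none of them a member. Leaving out 1 library gave 0 to 3 called genes and 0 members. Ces1d, at 0.016 with all libraries, was −0.0085 with limma-voom and −0.0022 with the replicate block. With 1 library left out, log2 fold changes changed sign for 6 members. They ran from −0.35 to 0.023 for Ces1c, −0.23 to 0.15 for Ces1d, −0.22 to 0.042 for Ces1f, −0.50 to 0.018 for Ces1g, −0.27 to 0.012 for Ces3a and −0.41 to 0.024 for Ces3b. For Ces1c, Ces1g, Ces3a and Ces3b the positive value came without AAV-GFP replicate 2. Without AAV-Trib3 replicate 3, 1 member had an unadjusted p under 0.05, Ces2e, with a log2 fold change of −0.56. Without AAV-GFP replicate 2 it was a different member, Ces2c, with −0.70. With all libraries, and with any other single library left out, 0 members had such a p. The share of all tested genes at that p was not examined in these fits, so the counts have no background. The cause of the change was not tested. With library size alone the median over the members was −0.18, while that of all genes was 0.037. With 4 libraries a group the 95% interval of Ces2e still included a log2 fold change of −0.90.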
